A study of Mus musculus with 4 samples.

Results

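Hemoglobin genes and the gene for the erythroid heme synthesis enzyme were followed in embryoid bodies, which are aggregates of differentiating embryonic stem cells. The genes were chosen by name: the embryonic globins Hbb-bh1, Hbb-y and Hba-x, the adult globins Hba-a1, Hba-a2, Hbb-b1 and Hbb-b2, and Alas2. These are 8 of the 24015 gene symbols counted in the series. All 8 were listed in every library, and 4 of them (the embryonic globins and Alas2) had enough counts to be tested, out of 14259 genes tested.

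The study compared Trim33-deficient with Control embryoid bodies of mouse, each by RNA sequencing of 2 libraries. The embryonic stem cell lines, of outbred strain, came from embryos with both copies of Trim33 flanked by loxP sites (Trim33-flox) and with the UbcCreERT2 transgene, a tamoxifen-activated Cre recombinase under the ubiquitin C promoter, so deletion was not limited to a cell type. Deficiency was induced in the Trim33-deficient bodies by 4OH-tamoxifen on day 4 of differentiation. Control bodies carry the genotype label wild type; the labels do not settle whether Control lines also carried the flox alleles and the Cre transgene, or whether Control bodies received 4OH-tamoxifen. Cell lines were at passages 8 to 10, bodies of all groups were harvested on day 7, and the labels speak of independent pairs.

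Counts in genes totalled 13808837 and 12109547 in the Trim33-deficient libraries and 12390541 and 10422738 in the Control libraries. Trim33 itself was at 43.8 and 42.3 CPM (counts scaled to library size, with TMM, edgeR's correction for library composition) in the Trim33-deficient libraries, against 93.0 and 109 CPM in the Control libraries. The lower level matched the labels, with a log2 fold change of −1.23 (SE 0.13), an edgeR quasi-likelihood adjusted p of 0.219 and a DESeq2 adjusted p of 1.7e-06. Control replicate 1 stood apart from the other libraries: its log2 CPM correlated with theirs at Pearson r of 0.932 to 0.952 across genes, against 0.967 to 0.978 among the other libraries. Results that rest on this library are therefore also given without it or within pairs.

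A hemoglobin molecule joins alpha-like and beta-like globin chains, each of which holds a heme group. In the mouse, the first red cells form in the yolk sac and use embryonic chains, with zeta globin (Hba-x) on the alpha side and epsilon-y (Hbb-y) and beta-h1 (Hbb-bh1) on the beta side. Later red cells of the fetal liver and bone marrow use the adult alpha (Hba-a1, Hba-a2) and beta (Hbb-b1, Hbb-b2) chains. Heme is built in a chain of enzymes, and its first step has a housekeeping form, Alas1, and an erythroid form, Alas2. Differentiating embryoid bodies are known to form yolk sac type blood cells, and in zebrafish the ortholog of Trim33 is required for red cell formation.

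The sequences just before the start sites of an embryonic beta-like gene, the embryonic and an adult alpha-like gene, and Alas2 show what regulatory letters genes that did and did not yield counts have in common. RefSeq sequences (GRCm38.p6) were found for 5 of the 8 genes, Hba-a2 among them, while Hbb-bh1, Hbb-b1 and Hbb-b2 are only named. The 250 bases before each start are printed 5′ to 3′ on the gene's own strand, from chr7:103853208-103853457 (minus strand) for Hbb-y, chr11:32276350-32276599 (plus strand) for Hba-x, chr11:32283422-32283671 (plus strand) for Hba-a1 and chrX:150547167-150547416 (plus strand) for Alas2. Capitals mark the GATA motif (AGATAA, the variant AGATAG, the variant TGATAA and the variant TGATAG), which GATA factors such as the erythroid factor Gata1 bind, the CACCC box, to which Klf1-type factors bind, and the CCAAT box, each searched on both strands.
Hbb-y: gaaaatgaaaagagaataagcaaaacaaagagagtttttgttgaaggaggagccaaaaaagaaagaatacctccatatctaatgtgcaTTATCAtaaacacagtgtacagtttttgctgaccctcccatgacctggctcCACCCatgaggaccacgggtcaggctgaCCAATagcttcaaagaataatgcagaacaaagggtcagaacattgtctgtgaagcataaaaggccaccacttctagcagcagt
Hba-x: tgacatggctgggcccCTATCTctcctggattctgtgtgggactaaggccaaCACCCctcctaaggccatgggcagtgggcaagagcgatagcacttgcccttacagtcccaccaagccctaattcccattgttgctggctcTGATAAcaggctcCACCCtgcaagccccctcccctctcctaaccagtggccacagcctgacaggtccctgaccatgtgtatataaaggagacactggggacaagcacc
Hba-a1: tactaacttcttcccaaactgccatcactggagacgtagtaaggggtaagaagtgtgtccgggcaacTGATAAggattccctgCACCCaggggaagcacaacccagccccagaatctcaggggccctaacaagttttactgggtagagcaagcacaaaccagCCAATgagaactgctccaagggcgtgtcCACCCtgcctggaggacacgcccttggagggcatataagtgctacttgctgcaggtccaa
Alas2: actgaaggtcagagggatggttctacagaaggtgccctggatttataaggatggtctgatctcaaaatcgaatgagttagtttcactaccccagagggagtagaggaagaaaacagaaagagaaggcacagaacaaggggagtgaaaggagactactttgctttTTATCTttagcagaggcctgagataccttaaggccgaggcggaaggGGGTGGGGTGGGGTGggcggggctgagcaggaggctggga

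Each of the printed windows held a GATA motif and a CACCC box. The GATA motif of Hbb-y lay 162 to 157 bases upstream of the start, that of Hba-a1 183 to 178 bases and that of Alas2 86 to 81 bases, while Hba-x held one at 234 to 229 bases and another at 108 to 103 bases. A CCAAT box was present in Hbb-y (83 to 79 bases upstream) and in Hba-a1 (88 to 84 bases upstream), and these letters were not in the windows of Hba-x and Alas2. Alas2 carried 3 CACCC boxes on the reverse strand in a row, between 40 and 26 bases upstream. Among all 32851 promoter windows of the same length, 26.5% held the GATA motif, 52.0% a CACCC box, 33.8% a CCAAT box and 3.92% all 3, so each element is common by itself. The adult gene Hba-a1, which had no counts, held the same kinds of letters as Hbb-y, which had counts in every library.

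Embryonic globin RNA was present in all libraries, at low levels, and differed more between replicates than between genotypes. Hbb-bh1, the beta-h1 chain, had 238 and 927 counts in the Trim33-deficient libraries, against 4 and 617 counts in the Control libraries. In CPM these were 17.2 and 79.2 in the Trim33-deficient and 0.309 and 60.3 in the Control libraries, with means of 48.2 ± 43.8 CPM and 30.3 ± 42.4 CPM (SD, n = 2 each). The second library of each group was high, Control replicate 1 was close to 0, and the groups overlapped.

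Hba-x, the zeta chain that pairs with the embryonic beta-like chains, followed the same order of libraries. Its counts were 149 and 1046 in the Trim33-deficient libraries, against 6 and 474 in the Control libraries, and its levels were 10.7 and 89.3 CPM against 0.464 and 46.3 CPM. Hbb-y, the epsilon-y chain, had 41 and 389 counts (2.96 and 33.2 CPM) in the Trim33-deficient libraries, against 6 and 136 counts (0.464 and 13.3 CPM) in the Control libraries. For both genes Trim33-deficient replicate 2 was highest and Control replicate 1 lowest, and the groups overlapped.

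Alas2, which makes the first heme precursor in red cells, had 30 and 63 counts in the Trim33-deficient libraries and 2 and 31 counts in the Control libraries. Its levels of 2.16 and 5.38 CPM in the Trim33-deficient libraries overlapped those of 0.155 and 3.03 CPM in the Control libraries. The range of Alas2 over libraries was narrower than that of the embryonic globins, though its low end rests on the 2 counts of Control replicate 1. Its order of libraries was the same.

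**Figure D1:**
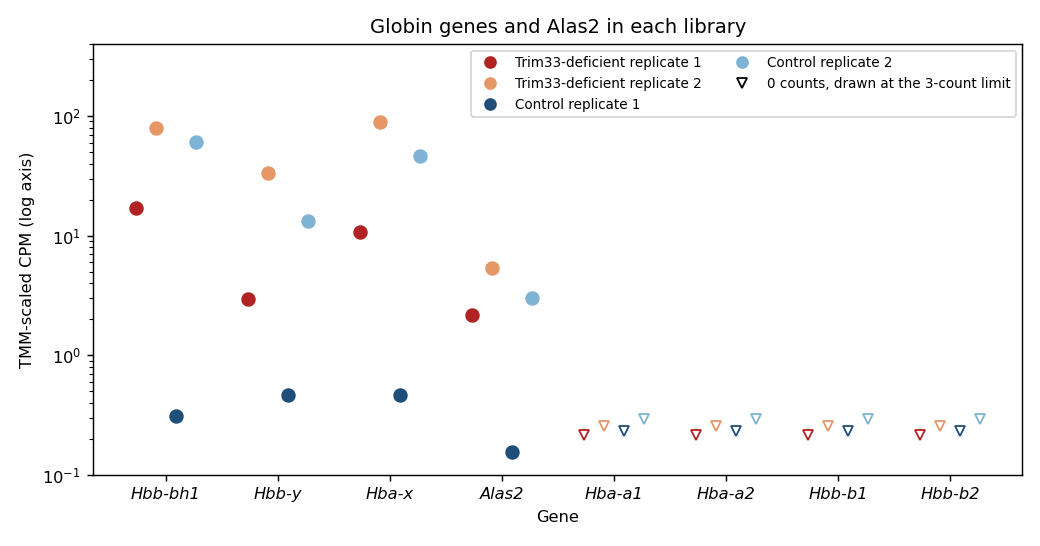
TMM-scaled CPM (log axis) of Hbb-bh1, Hba-x, Hbb-y, Alas2 and the adult globins in each library, where each point is 1 library. Open triangles are adult globins at 0 counts, drawn at the 3-count limit (0.216 to 0.293 CPM) and not at a measured level. In the 4 genes with counts, Control replicate 1 is lowest and Trim33-deficient replicate 2 highest. The 2 Trim33-deficient libraries span the level of Control replicate 2 in these genes.

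Levels divided by transcript length allow the genes to be ranked within a library. In CPM per kilobase, Hbb-bh1 stood at 28.0 and 129 in the Trim33-deficient libraries and 0.504 and 98.3 in the Control libraries. Hba-x followed at 13.4 and 112 CPM per kilobase in the Trim33-deficient libraries and 0.579 and 57.8 in the Control libraries, then Hbb-y at 4.67 and 52.5 against 0.732 and 21.0. Alas2 was lowest, at 1.06 and 2.64 CPM per kilobase in the Trim33-deficient libraries, against 0.0759 and 1.49 in the Control libraries. The order Hbb-bh1, Hba-x, Hbb-y, Alas2 held in both Trim33-deficient libraries and in Control replicate 2; in Control replicate 1 the globins had only 4 to 6 counts each, too few to order.

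None of the 4 tested genes passed the test between Trim33-deficient and Control bodies. The edgeR quasi-likelihood log2 fold changes (Trim33-deficient over Control) were 0.68 (SE 1.75) for Hbb-bh1, 1.11 (SE 1.77) for Hba-x, 1.41 (SE 1.64) for Hbb-y and 1.27 (SE 1.21) for Alas2. Their Benjamini-Hochberg adjusted p-values over all genes tested were 0.920, 0.865, 0.817 and 0.787, and DESeq2 gave 0.999 for each. edgeR called 0 of the 4 genes, and none of the 4 had an unadjusted p under 0.05, beside 0.0140% of all tested genes called and 7.84% with an unadjusted p under 0.05; DESeq2 also called 0 of the 4, beside 1.01% of all genes. All 4 log2 fold changes lay above 0 and none below, where 49.8% of all tested genes lay above 0 and 50.2% below. Each standard error exceeded or nearly matched its fold change, so these data set no close limit on a difference in either direction. The authors' deposited table of 84 genes held none of the 8 genes.

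Left-out libraries decided the sign for the globins. Without Control replicate 1 the log2 fold changes were −0.33 for Hbb-bh1, 0.43 for Hbb-y, 0.10 for Hba-x and 0.30 for Alas2. Without Control replicate 2 they were 7.24 for Hbb-bh1, 5.25 for Hbb-y, 6.72 for Hba-x and 4.51 for Alas2, with edgeR adjusted p of 0.0944 to 0.225. Without Trim33-deficient replicate 2 the 3 globins turned negative, at −0.81 for Hbb-bh1, −1.20 for Hbb-y and −1.11 for Hba-x, while Alas2 was at 0.47.

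Set against the Control library of the same replicate number, the Trim33-deficient library had more RNA of all 4 genes in both pairs. In pair 1 the ratio of CPM was 55.5 for Hbb-bh1 (95% exact counting interval 21.4 to 205), 23.2 for Hba-x (10.4 to 64.2), 6.38 for Hbb-y (2.69 to 18.4) and 14.0 for Alas2 (3.55 to 121). In pair 2 it was 1.31 for Hbb-bh1 (1.19 to 1.46), 1.93 for Hba-x (1.73 to 2.16), 2.50 for Hbb-y (2.05 to 3.06) and 1.78 for Alas2 (1.14 to 2.83). The intervals cover counting error only, and reads without molecular identifiers are not independent molecules. The pair 1 ratios rest on the 2 to 6 counts per gene in Control replicate 1, and the direction was the same in both pairs for 4 of 4 genes. Of all tested genes, 30.3% were higher and 29.8% lower in both pairs. The 4 genes shared the same order of libraries, so they are not 4 separate observations. The direction also depends on pairing by number. Trim33-deficient replicate 1 was below Control replicate 2 for each gene, at 17.2 against 60.3 CPM for Hbb-bh1.

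**Figure D2:**
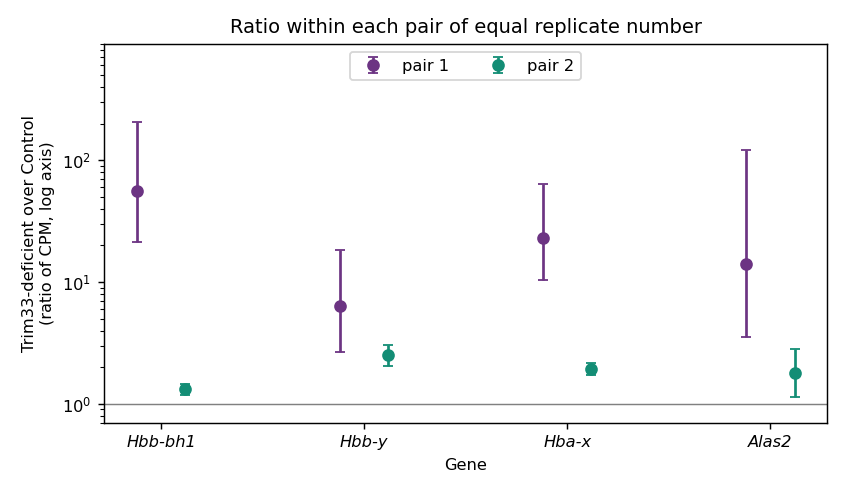
Ratio of CPM, Trim33-deficient over Control (log axis), for each gene within each pair of equal replicate number; bars are 95% exact counting intervals and the line marks a ratio of 1. All ratios lie above 1, those of pair 1 from 6.38 to 55.5 with wide intervals and those of pair 2 from 1.31 to 2.50.

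With the replicate number as a block in edgeR, the log2 fold changes were larger and none passed the threshold. They were 1.98 (SE 1.12, adjusted p 0.564) for Hbb-bh1, 2.02 (SE 0.76, adjusted p 0.433) for Hba-x, 1.77 (SE 0.40, adjusted p 0.292) for Hbb-y and 1.79 (SE 0.78, adjusted p 0.486) for Alas2. Only Hbb-y had an unadjusted p under 0.05 in that fit, at 0.00894, where 11.6% of all tested genes had one and 0.0140% passed after adjustment.

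The replicates of a group differed more for the embryonic globins than for nearly all other genes. Control replicate 2 exceeded Control replicate 1 by 195-fold for Hbb-bh1, 99.8-fold for Hba-x, 28.6-fold for Hbb-y and 19.6-fold for Alas2. On the log2 scale with a prior count of 2, the difference was 7.00 for Hbb-bh1, which no other tested gene exceeded in absolute size, and 6.21 for Hba-x, which 1 gene exceeded; 8 genes exceeded that of Hbb-y (4.42) and 50 that of Alas2 (3.32). The median absolute difference over all 14259 tested genes was 0.239.

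The Trim33-deficient libraries also differed from each other for these genes, by less. Trim33-deficient replicate 2 exceeded replicate 1 by 4.61-fold for Hbb-bh1, 8.31-fold for Hba-x, 11.2-fold for Hbb-y and 2.49-fold for Alas2. The log2 differences were 2.19 for Hbb-bh1 (67 genes larger), 3.04 for Hba-x (15 larger), 3.42 for Hbb-y (7 larger) and 1.25 for Alas2 (425 larger), against a median of 0.207 over all genes. In both genotypes replicate 2 was the library with more globin RNA.

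**Figure D3:**
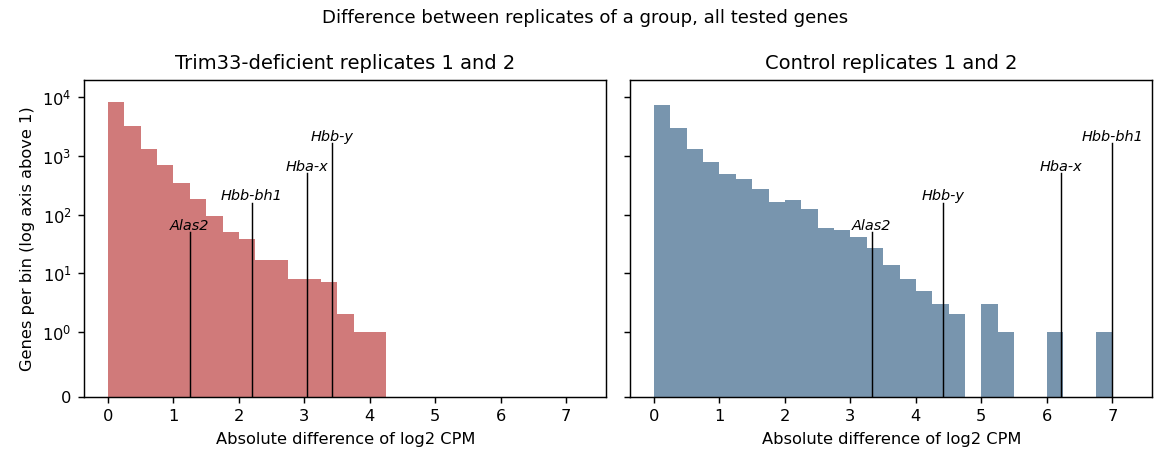
Number of tested genes (log axis above 1) by absolute difference of log2 CPM between replicates 1 and 2, for the Trim33-deficient libraries and for the Control libraries, with the 4 genes marked. Hbb-bh1 lies at the far end in the Control panel (7.00) and Hbb-y is the outermost of the 4 in the Trim33-deficient panel (3.42).

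Summed over the 7 listed globins, globin RNA took a small share of the transcriptome in every library. The sums were 428 and 2362 counts in the Trim33-deficient libraries, against 16 and 1227 counts in the Control libraries. As shares of all counts in genes these were 0.00310% and 0.0195% in the Trim33-deficient libraries, against 0.000129% and 0.0118% in the Control libraries. The means were 116 ± 121 CPM in Trim33-deficient bodies and 60.5 ± 83.9 CPM in Control bodies (SD, n = 2 each), a log2 ratio of 0.94. An exact two-sided permutation test gave p = 0.667, and 0.333 is the smallest p that 2 against 2 libraries can give. Without Control replicate 1 the log2 ratio was −0.043.

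Every globin count came from embryonic genes. The 4 adult genes had 0 counts in each library, so the embryonic share was 100% throughout. With the same share in every library, the exact permutation p of 1.0 for a group difference was fixed in advance and tests nothing. A count of 0 allows an adult share of up to 0.701% and 0.127% of globin counts in the Trim33-deficient libraries, and of up to 18.8% and 0.244% in the Control libraries, taking 3 counts as the limit. In CPM the same limit was 0.216 and 0.256 for each adult gene in the Trim33-deficient libraries, against 0.232 and 0.293 in the Control libraries. Control replicate 1, with 16 globin counts, sets the widest limit. Within the alpha-like genes, zeta made up 100% of 149 and 1046 counts in the Trim33-deficient libraries and of 6 and 474 counts in the Control libraries.

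The zeros of the adult genes have a limit that the embryonic genes do not share. Hba-a1 and Hba-a2 are near-identical copies: in GENCODE M21 transcripts, 67.5% of the 50-base windows of Hba-a1 (439 of 650) and 86.9% of those of Hba-a2 (439 of 505) occurred in the other. Hbb-b1 and Hbb-b2 are not in that annotation. It lists instead Hbb-bs and Hbb-bt, the adult beta genes of another haplotype, which also had 0 counts in every library and shared 381 windows, 65.8% and 58.3% of their own. The embryonic globins and Alas2 shared 0% of their windows with another globin transcript. The row for reads with several alignments was at 0 in every library, and the part of shared sequence in these zeros was not tested. The other windows of the adult genes occurred in no other globin transcript of the annotation.

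The mix of the embryonic beta-like chains varied as much between replicates as between genotypes. Hbb-y made up 14.7% (41 of 279 counts; exact Clopper-Pearson 95% interval 10.8 to 19.4) and 29.6% (389 of 1316; 27.1 to 32.1) of the Hbb-y and Hbb-bh1 counts in the Trim33-deficient libraries. In the Control libraries it made up 60.0% (6 of 10; 26.2 to 87.8) and 18.1% (136 of 753; 15.4 to 21.0). The means were 22.1% ± 10.5 in Trim33-deficient bodies and 39.0% ± 29.7 in Control bodies (SD, n = 2 each), a difference of −16.9 percentage points with an exact two-sided permutation p of 0.667. Without Control replicate 1, whose share rests on 10 counts, the difference was 4.07 points. The 2 Trim33-deficient libraries differed from each other beyond counting error, since their intervals do not overlap.

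The balance of alpha-like to beta-like embryonic RNA varied less than the levels did. Per length, the ratio of Hba-x to the sum of Hbb-bh1 and Hbb-y was 0.411 and 0.614 in the Trim33-deficient libraries, against 0.468 and 0.485 in the Control libraries, so that beta-like RNA exceeded zeta RNA in every library. Alas2 had 7.01 and 2.67 counts per 100 globin counts in the Trim33-deficient libraries and 12.5 and 2.53 in the Control libraries. The ratio was lowest in the second library of each group, which had the most globin RNA, and in Control replicate 1 it rests on 2 Alas2 counts.

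Alas2 was the exception among the heme synthesis enzymes, 8 of which are reported here and were tested. Its ubiquitous counterpart Alas1 had 526 and 549 counts in the Trim33-deficient libraries and 560 and 346 counts in the Control libraries, a log2 fold change of 0.14 (SE 0.20, edgeR adjusted p 0.854). In CPM per kilobase Alas1 stood at 11.2 and 13.8 in the Trim33-deficient libraries, against 12.7 and 9.94 in the Control libraries, and exceeded Alas2 in each. The other enzymes ranged from 164 to 796 counts in the Trim33-deficient libraries and from 124 to 861 counts in the Control libraries, and none showed the low value of Control replicate 1 seen for Alas2.

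Of the 8 enzymes, 4 had a log2 fold change above 0 and 4 below, with a median of −0.039 beside −0.0014 over all tested genes (0.031 and 0.0046 without Control replicate 1). edgeR and DESeq2 called 0 of the 8, and none had an unadjusted p under 0.05. Apart from Alas2, the largest absolute log2 fold change was 0.36, that of Cpox, which makes protoporphyrinogen, at 57.4 and 54.3 CPM in the Trim33-deficient libraries against 59.7 and 84.1 CPM in the Control libraries (log2 −0.36, SE 0.20, edgeR adjusted p 0.678). Ppox, the enzyme of the next step, was at 22.4 and 25.7 CPM in the Trim33-deficient libraries against 27.9 and 33.2 CPM in the Control libraries (log2 −0.34, SE 0.18, edgeR adjusted p 0.676). Fech, which inserts the iron, had a log2 fold change of −0.12. Of all tested genes, 19.3% had every Trim33-deficient library higher and 21.4% every one lower, against 0 and 2 (Cpox and Ppox) of the 8 enzymes. The 7 enzymes other than Alas2 summed to 271 and 274 CPM in the Trim33-deficient libraries and 293 and 299.8 CPM in the Control libraries.

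**Figure D4:**
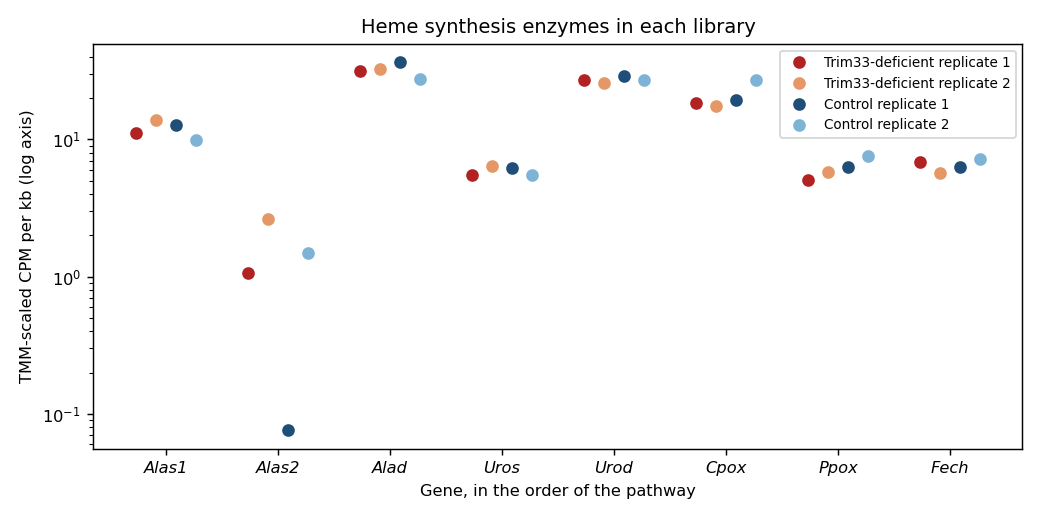
TMM-scaled CPM per kilobase (log axis) of 8 heme synthesis enzymes, in the order of the pathway; each point is 1 library. Alas2 lies below the other enzymes in each library and spans 0.0759 to 2.64, while the points of each other enzyme lie close together.

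Genes that carry heme and its precursors, and those that handle iron, had log2 fold changes on both sides of 0. Of 16 tested genes of heme transport and mitochondrial heme supply, 8 had a log2 fold change above 0 and 8 below (median −0.0015; 0.047 without Control replicate 1). edgeR and DESeq2 called 0 of the 16, and 1 had an unadjusted edgeR p under 0.05: Abcb6, a porphyrin transporter, with a log2 fold change of −0.39 (SE 0.13, edgeR adjusted p 0.608). Slc25a38, the mitochondrial carrier that brings in glycine for the first step, had a log2 fold change of 0.21, Fam210b, a mitochondrial protein linked to iron delivery, 0.30, and Hebp1, a heme-binding protein, 0.40. Of 14 tested genes of iron uptake, storage and heme breakdown, 5 had a log2 fold change above 0 and 9 below (median −0.024; 0.081 without Control replicate 1), and edgeR called 0 of them.

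Trf, which encodes the iron carrier transferrin, was the exception in that list. It had 42 and 43 counts in the Trim33-deficient libraries, against 569 and 392 counts in the Control libraries, with a log2 fold change of −3.62 (SE 0.22, edgeR adjusted p 0.0853); it was the only gene of the list with an unadjusted p under 0.05, and DESeq2 called it (adjusted p 4.73e-25). Trf is also a product of visceral endoderm, whose markers were lower in the Trim33-deficient libraries (given with the cell type markers). Tfrc, the transferrin receptor, was at 257 and 209 CPM in the Trim33-deficient libraries and 363 and 174 CPM in the Control libraries, overlapping. Steap3, which reduces iron in endosomes, had a log2 fold change of 0.42, the iron exporter Slc40a1 −0.39 and the iron-sensing regulator Ireb2 0.20, none of them past the threshold.

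Other globins outside the hemoglobin genes listed were rare or showed the same order of libraries. Cygb, which encodes cytoglobin of fibroblast-like cells, had 84 and 232 counts in the Trim33-deficient libraries, against 16 and 110 counts in the Control libraries (log2 fold change 1.12, SE 1.09, edgeR adjusted p 0.790). It shared with the embryonic globins the low value in Control replicate 1, although it is no red cell gene. Mb, which encodes myoglobin of muscle, had 17 and 4 counts in the Trim33-deficient libraries and 12 and 4 counts in the Control libraries. The minor globins Hbq1a, Hbq1b and Hbb-bh2 had at most 1 count in any library.

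Other genes of the red cell lineage were expressed at low levels. In bulk RNA of whole bodies, fewer red cells and less RNA per red cell cannot be told apart, and this holds for each globin value above. Slc4a1, the red cell anion exchanger, had 2 and 37 counts in the Trim33-deficient libraries, against 2 and 25 in the Control libraries. It was highest in the libraries with most globin RNA.

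Other erythroid genes did not follow the globins in every library. Gata1 had 4 and 32 counts in the Trim33-deficient libraries and 12 and 10 counts in the Control libraries, and Klf1, which activates globin genes, 10 and 11 counts against 5 and 16 counts. Rhag, of the Rh complex, had 2 and 5 counts in the Trim33-deficient libraries against 0 and 7 in the Control libraries. Together these 4 markers summed to 1.30 and 7.26 CPM in the Trim33-deficient libraries and 1.47 and 5.66 CPM in the Control libraries, beside 30.9 and 202 CPM in the Trim33-deficient and 1.24 and 119.8 CPM in the Control libraries for the globins. Counts of these genes were thus present in every library, but were few in the first library of both groups. Their sum in Control replicate 1, where Gata1 held 12 counts and Rhag 0, was no lower than in Trim33-deficient replicate 1.

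Of 23 tested erythroid transcription factors and receptors, 15 had a log2 fold change above 0 and 8 below (median 0.28; 0.035 without Control replicate 1). edgeR called 0 of them and 2, Runx1 and Nfix, had an unadjusted p under 0.05, while DESeq2 called 1, Runx1, a factor that starts blood formation. Runx1 had 498 and 713 counts in the Trim33-deficient libraries, against 262 and 218 counts in the Control libraries, with a log2 fold change of 1.22 (SE 0.29, edgeR adjusted p 0.530, DESeq2 adjusted p 0.0467). The groups did not overlap for 8 of the 23 genes, 7 higher and 1 lower in Trim33-deficient libraries, where 40.7% of all tested genes did not overlap. The nuclear factor Nfix had a log2 fold change of 1.06, Zbtb7a, a repressor of fetal globin in humans, 0.50, and the stress factor Nfe2l2 0.37. Of 27 tested red cell membrane and late erythroid genes, 18 had a log2 fold change above 0 and 9 below (median 0.20; −0.00034 without Control replicate 1 and 0.10 with the replicate block). edgeR and DESeq2 called 0 of these 27, and 2 had an unadjusted p under 0.05: Bnip3l (log2 −0.52), which clears mitochondria from maturing red cells, and the actin nucleator Spire1 (log2 −0.52). Next by p were the water channel Aqp1 (log2 0.60) and the glucose transporter Slc2a4 (log2 0.51).

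Markers of other cell types also differed between libraries and are given for comparison with the globins. Defining endothelial markers summed to 258 and 303 CPM in the Trim33-deficient libraries and 185 and 459 CPM in the Control libraries. Kdr, a receptor of endothelial cells and their blood-forming precursors, had 1054 and 1384 counts in the Trim33-deficient libraries, against 255 and 1620 counts in the Control libraries, and Tek, the angiopoietin receptor, 606 and 848 against 146 and 1192. Both were lowest in Control replicate 1, as the globins were, while Cdh5, an adhesion protein of endothelium, was at 1100 and 708 counts in the Trim33-deficient libraries and 1587 and 899 in the Control libraries. The whole list of 21 endothelial genes summed to 594 and 546 CPM in the Trim33-deficient libraries and 371 and 816 CPM in the Control libraries. All 21 were tested, and 12 had a log2 fold change above 0 and 9 below (median 0.010; −0.50 without Control replicate 1 and 0.50 with the replicate block). edgeR and DESeq2 called 0 of them, and none had an unadjusted edgeR p under 0.05. The 4 with the smallest p were Cdh5 (log2 −0.59), Sox17 (log2 −0.41), Fli1 (log2 0.81) and Cd34 (log2 0.90).

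Defining markers of platelets and white cells were low. The 4 defining megakaryocyte markers summed to 9.02 and 18.7 CPM in the Trim33-deficient libraries and 3.17 and 11.4 CPM in the Control libraries, with Pf4 at 0 and 10 counts against 0 and 1. The whole list of 14 megakaryocyte and platelet genes summed to 350.1 and 613 CPM in the Trim33-deficient libraries, against 251 and 244 CPM in the Control libraries. These sums did not overlap, and of single tested genes 19.3% lay higher without overlap. Thbs1, an extracellular matrix protein that platelets and many other cells make, held most of the summed CPM. It was at 251 and 441 CPM in the Trim33-deficient libraries against 144 and 179.9 CPM in the Control libraries. Of the 7 tested genes of the whole list, 6 had a log2 fold change above 0 (median 1.09, and 1.09 without Control replicate 1). Values were 1.65 (SE 0.68) for Gp1ba, 1.09 (SE 0.30) for Thbs1, 2.02 (SE 1.45) for Plek and 2.44 (SE 0.97) for Tubb1. edgeR and DESeq2 called 0 of the 7, and 1, Thbs1, had an unadjusted p under 0.05. The 6 defining macrophage and white cell markers summed to 17.0 and 25.1 CPM in the Trim33-deficient libraries and 35.2 and 16.1 CPM in the Control libraries, and the pan-leukocyte gene Ptprc had 0 and 1 counts against 0 and 0. The whole list of 21 such genes summed to 23.2 and 32.6 CPM in the Trim33-deficient libraries and 42.7 and 29.4 CPM in the Control libraries. All 6 tested genes of the whole list had a log2 fold change below 0 (median −0.51; 0.0040 without Control replicate 1), with 0 called by either tool and 0 at an unadjusted p under 0.05.

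Visceral endoderm, the outer layer that surrounds the early embryo and lies against the blood islands of the yolk sac, was the cell type among those examined whose markers passed the test. Its 6 defining markers summed to 54.4 and 47.8 CPM in the Trim33-deficient libraries, against 847 and 895 CPM in the Control libraries, and the whole list of 25 to 975 and 1047 CPM against 2309 and 3046 CPM. Of 25 tested markers 23 had a log2 fold change below 0, where 50.2% of all tested genes did. The median was −2.49, and −2.79 without Control replicate 1. edgeR called 2 lower, Apoc2 (log2 −6.12, adjusted p 0.0138) and Cubn (log2 −4.76, adjusted p 0.0166), and DESeq2 called 18. Of all genes, edgeR called 0.0140% and DESeq2 1.01%, in either direction. The summed visceral endoderm markers were lower in the Trim33-deficient library of both pairs, with no overlap between the groups. Of single tested genes, 21.4% lay lower without overlap. The globins were higher in the Trim33-deficient library of both pairs, with groups that overlapped. The part of the lower visceral endoderm RNA in the globin levels was not tested.

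**Figure D5:**
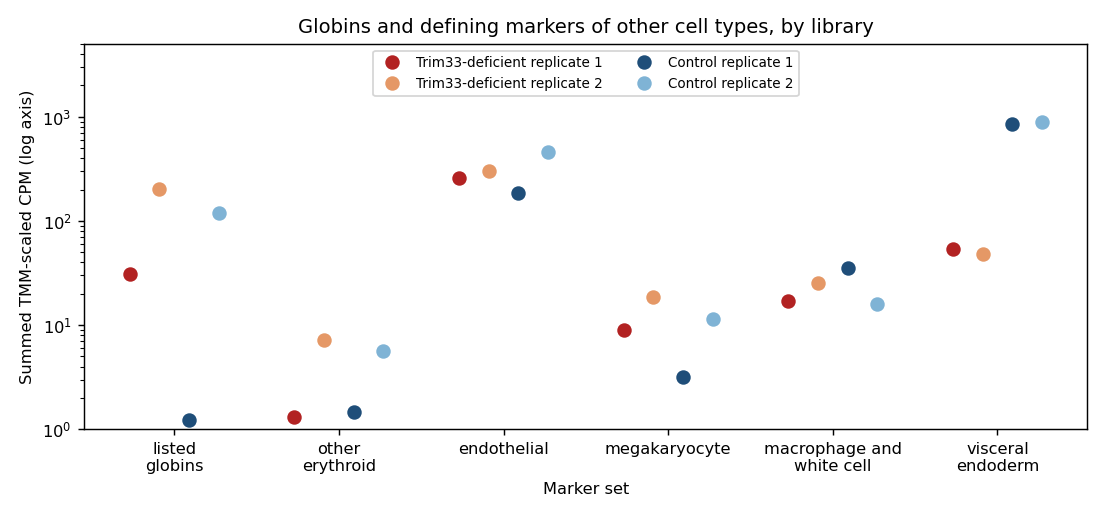
Summed TMM-scaled CPM (log axis) of the listed globins and of the defining markers of other cell types; each point is 1 library. Visceral endoderm markers separate Trim33-deficient (54.4 and 47.8) from Control libraries (847 and 895), while the globin sums (30.9 and 202 against 1.24 and 119.8) overlap.

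Genes with library profiles closest to Hbb-bh1 and Alas2 were sought among 12928 tested genes with a mean of at least 2 CPM, by the root mean square distance of log2 CPM over the 4 libraries after each gene was centred on its own mean. For Hbb-bh1 the nearest gene of all was Hba-x (distance 0.428), and Hbb-y (1.12) and Alas2 (1.42) were farther away. Near genes outside the globin and heme genes listed were Mrvi1 (0.575), with 130 and 474 counts in the Trim33-deficient libraries against 4 and 200 in the Control libraries, and Upk3b (0.733), with 214 and 699 against 13 and 430. Also near were Tbx4 (0.766), with 155 and 308 counts in the Trim33-deficient libraries against 4 and 161 in the Control libraries, and Pcdh11x (1.07), with 18 and 76 against 0 and 27. Tbx4 is a factor of the allantois and hindlimb and Upk3b a marker of mesothelium.

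For Alas2 the nearest genes, picked as the closest of 12928, lay closer than any globin did. They were Adam12 (0.0496), Col14a1 (0.0644), Adamts2 (0.108), Dnm3os (0.125) and Hgf (0.129), against 0.859 for Hbb-y, 1.25 for Hba-x and 1.42 for Hbb-bh1. Adam12 had 816 and 1685 counts in the Trim33-deficient libraries against 109 and 800 in the Control libraries, Col14a1 171 and 312 against 20 and 173, and Adamts2 1235 and 2482 against 145 and 1433. Col14a1 encodes a collagen and Adamts2 a procollagen protease, both of connective tissue, and Hgf (33 and 75 counts in the Trim33-deficient libraries against 3 and 44 in the Control libraries) a growth factor of mesenchyme. Dnm3os, a microRNA host transcript, had 174 and 406 counts against 26 and 184. All of these genes were lowest in Control replicate 1 and highest in Trim33-deficient replicate 2, as the globins were. Picking genes by likeness of profile favours this order, so it is no separate result. With so many candidates some gene is likely to lie close, so the distances do not set Alas2 apart from the globins. In Control replicate 1 Alas2 had only 2 counts and the embryonic globins 4 to 6. The distances of these genes therefore also depend on the prior count of 2 used for log2 CPM. Alas2 and the globins had the same order of libraries.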

How the data were processed

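Total RNA of embryoid bodies went into standard Illumina libraries, and libraries were grouped by their titles. The deposited per-library files hold raw read counts, 1 row for each gene symbol. STAR, HTSeq and DESeq are named without version in the submitters' processing notes, with mm9 as the genome build. Strand setting and read length are not given here. The no-feature row took 56.0% and 55.5% of reads for Trim33-deficient and 55.8% and 55.9% for Control, and ambiguous reads took at most 0.200%; such rows stayed out of library sizes and tests. The authors' deposited table, per the file headers, gives for each gene mean normalised signal, a fold ratio, a log2 fold change and a p-value with its adjusted value (at most 0.0496).

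Genes passing filterByExpr were scaled by TMM and tested with edgeR 4.0.16 in R 4.3.3 (quasi-likelihood test, p adjusted by Benjamini-Hochberg over all tested genes, called under 0.05); the test was run on simulated data first. DESeq2 1.42.0 was an alternative, as were edgeR's likelihood ratio test, other scalings and filters, and each library left out. The SE of a log2 fold change is its absolute value over the root of the F statistic. CPM are TMM-scaled, log2 CPM used a prior count of 2, and levels per kilobase used the longest GENCODE M21 transcript. Intervals are 95% exact, for counting error only, and a count of 0 allows 3 counts.

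Pairs were taken by replicate number, since independent pairs are mentioned in the labels and no other label could tell them apart. Deviations of same-numbered libraries from the group means correlated at Pearson 0.236 across genes. Whether replicates came from separate lines is not stated, so p-values measure only the spread between these libraries. Replicates differed beyond counting noise (chi-square per degree of freedom 24.3 for Trim33-deficient and 35.7 for Control).

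The genes and lists were chosen with earlier results of these data known. Named were the 8 genes and Trim33, up to 4 genes per list with the smallest edgeR p, the 5 profiles nearest to Hbb-bh1 and to Alas2, and marker genes of the cell types. A few genes of these lists and profiles are not reported here. Alas1 and Tfrc were added after their values were seen. Medians without Control replicate 1 were also added after the data were seen.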

Additional observations from a re-analysis of the deposited data

How the results depend on the processing

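The count of 2 genes called by edgeR became 141 with DESeq2, 169 with edgeR's likelihood ratio test, 14 without a filter on low counts, and 0 to 40 with 1 library left out (0 without either Trim33-deficient library, 10 without Control replicate 1 and 40 without Control replicate 2). None of the 4 tested globin and heme genes was called under any of these. With the replicate block edgeR called 2 genes. For summed globins the mean of the log2 ratios within pairs was 2.70, and the log2 ratio of group means was 0.94. These are unlike measures. However libraries are paired, averaging log2 values gives more weight to Control replicate 1, with its 16 globin counts. With 1 library left out, the ratio of group means was lowest without Trim33-deficient replicate 2, at −0.97. It was highest without Control replicate 2, at 6.56, and the difference in the Hbb-y share ran from −37.9 to 4.07 points. These fits take the spread of the group with 2 libraries for the remaining single one.

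Among 50 named genes, 338 values under the other alternatives had 328 with the same direction and side of the threshold, 10 newly past it and 0 reversed. Of 200 values with a library left out, 15 in 12 genes changed sign. The log2 fold changes then ran from −0.81 to 7.24 for Hbb-bh1, −1.20 to 5.25 for Hbb-y, −1.11 to 6.72 for Hba-x, −0.47 to 5.21 for Upk3b, −0.072 to 6.28 for Mrvi1, −0.94 to 1.02 for Mb, −0.94 to 0.28 for Cd68, −0.056 to 0.74 for Hebp1, −2.47 to 1.13 for Mrc1, −0.38 to 4.64 for Plek, −0.19 to 1.51 for Steap3 and −0.25 to 0.0042 for Fech. The cause was not tested. Genes named outside these 50, such as Alas1 and Tfrc, are not in these totals. Alas1 went from 0.14 to −0.030 without Control replicate 2 and to −0.023 without Trim33-deficient replicate 2. Tfrc went from −0.20 to 0.42 without Control replicate 1. Alas2 kept its direction, from 0.30 to 4.51, and had no value under the stricter filter of 10 CPM. The 16 globin counts of Control replicate 1, a low level in a library of ordinary depth, bound its shares and ratios only loosely, and 2 libraries a group cannot bring an exact permutation p below 0.333.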
